A study of Homo sapiens with 6 samples.

Results

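T24 and UM-UC-3 are established human cell lines derived from carcinoma of the urinary bladder, and the data described here are the genes whose RNA level separated them whatever the treatment. All 6 libraries of the series entered, 3 of T24 and 3 of UM-UC-3. Within each line, cells were exposed for 48 h to a negative control, to siRNA-1 or to siRNA-2, the siRNAs at 0.04 OD, and each combination gave 1 library. The series title names HSF1, the master transcription factor of the heat shock response, which the siRNAs are taken to target. Each T24 library was set against the UM-UC-3 library of the same treatment, which gave 3 pairs. Both lines were grown with 10% serum, T24 in RPMI-1640 and UM-UC-3 in DMEM. Line, medium, gene annotation and any difference in handling or sequencing between the lines cannot be told apart here. Each treatment of a line was a single library. The p-values rest on the spread left after removal of treatment effects common to both lines. That spread holds treatment effects that differ between the lines, and part of it may be technical. It is not a spread between replicates of the same treatment. The test also drew the spread of each gene toward a trend over all genes.

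Urothelial carcinoma cells lie along a range from luminal, with uroplakins and the factors GATA3, FOXA1 and PPARG, to basal, with keratins such as KRT5 and KRT14, to mesenchymal, with loss of E-cadherin and gain of vimentin. The lines of this disease also differ in the tumour suppressor genes they have lost. T24 is known for an activating mutation of HRAS, and UM-UC-3 for deletion of the CDKN2A locus. Expression of cancer-testis genes, HOX genes and other developmental factors is known to vary widely between tumours, often with DNA methylation of their promoters.

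The deposited values were CPM, reads of a gene scaled to a common library size, and library totals ran from 23709089 to 28504833 reads, so that 1 read was worth 0.0351 to 0.0422 CPM. All triplets of values below run from the negative control over siRNA-1 to siRNA-2. HSF1 was measured at 106, 20.3 and 22.7 CPM in T24, and UM-UC-3 gave 138, 50.3 and 36.5 CPM. It was lower with both siRNAs in each line. The line difference of HSF1 was -0.77 ± 0.24, adjusted p = 0.0224, given here and below as T24 minus UM-UC-3 on the log2(CPM + 1) scale with its standard error, from limma-trend with a term for treatment. That difference did not pass without the siRNA-1 pair (adjusted p = 0.197) or the siRNA-2 pair (adjusted p = 0.0606). A gene that a file did not list was set to 0. Where the annotation of a line's files holds the gene and counts its reads, such a value can hide at most 4 reads per library. A gene absent from that annotation, or whose reads were dropped there, can hide more. "At least" before a fold uses those 4 reads and holds only in the first case.

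The files of the lines did not carry the same gene annotation. Names in the T24 files matched GENCODE release 29 for 99.9% of identifiers, against 74.2% in the UM-UC-3 files, in which 160 identifiers were not part of that release. Of 19945 genes named in both, 4244 had different names. Where the exons of a gene lie inside those of another gene in that release, reads can be dropped in one annotation and kept in the other. Of the 12 tested genes with 90% or more of their exon bases inside same-strand exons of another gene, 11 were higher in UM-UC-3 in all 3 pairs and 0 in T24. Among the 11610 genes with no same-strand overlap, 9.08% were higher in UM-UC-3 and 10.4% in T24. The share of overlapping bases is therefore given beside each gene named below for which it was 20% or more, on either strand. Its part in those differences was not tested. Overlap in the annotation of the UM-UC-3 files was not computed, so a gene whose reads were dropped there can lack this mark.

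The lines differed at a large share of all genes, and far more than the treatments differed within a line. The first principal component held 81.7% of the variance and put all T24 libraries on one side and all UM-UC-3 libraries on the other, and the second held 8.15%. Correlations of log2 values between libraries were 0.948 to 0.962 within T24, 0.976 to 0.985 within UM-UC-3 and 0.769 to 0.806 between the lines. Of 13761 genes tested, 6597 passed an adjusted p of 0.05 (47.9%), 3433 of them higher in T24 (24.9%) and 3164 higher in UM-UC-3 (23.0%). The libraries of the lines did not overlap at all for 7269 genes (52.8%). In such bulk libraries, fewer cells that express a gene and less of its RNA per cell cannot be told apart.

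Genes that passed and were also at least 2-fold apart in each of the 3 pairs are called separated below. There were 1405 of them higher in T24 (10.2% of those tested) and 1311 higher in UM-UC-3 (9.53%). For 2214 of these 2716 genes, the smallest distance between a T24 and a UM-UC-3 library was larger than the range of the treatments within either line. Among all tested genes that held for 3145 (22.9%). The median gap between the lines was 1.54 on the log2 scale for separated genes, beside a median treatment range of 0.77 within a line. The line difference was also compared between the controls and the siRNA libraries. Both siRNA libraries of a line were there taken as a group, against a single control library. With a single control per line, that comparison cannot decide whether a line difference changes with the siRNAs, and nothing is concluded from it. Without genes of 20% or more exon overlap, 1283 and 1116 genes were separated. All 20 tested identifiers outside GENCODE release 29 counted as separated higher in UM-UC-3. The T24 files held 0 such identifiers, so these calls were fixed by the join. Without them, 1405 and 1291 genes were separated. The share of long intergenic noncoding RNAs that were separated was 30.7% (126 of 410), against 19.4% of 11909 protein-coding genes.

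The locus of the cell cycle inhibitors CDKN2A and CDKN2B was expressed in T24 and not detected in UM-UC-3. CDKN2A, which encodes the INK4A inhibitor of CDK4 and CDK6 and the unrelated ARF protein, stood at 68.5, 59.7 and 21.9 CPM in T24 and was listed in no UM-UC-3 library (difference 5.52 ± 0.32, adjusted p = 1.6e-07). T24 was at least 336-fold higher, and its lowest value was the one with siRNA-2. CDKN2B, the neighbouring CDK inhibitor, stood at 18.9, 30.9 and 20.3 CPM in T24 and was listed in no UM-UC-3 library, a fold of at least 157. MTAP, an enzyme of methionine salvage that is commonly co-deleted with CDKN2A in tumours, stood at 41.7, 30.1 and 64.8 CPM against none listed, at least 306-fold higher in T24. DMRTA1, a DM domain factor further along chromosome 9, was at 1.94, 2.28 and 1.83 CPM in T24 and not listed in UM-UC-3, and the neuronal RNA-binding protein ELAVL2 at 1.90, 0.289 and 1.20 CPM against 0.20, 0.293 and 0.281 CPM, where the T24 library with siRNA-1 lay within the UM-UC-3 range. All 5 lie next to each other in the order of protein-coding genes, with genes under a mean of 1 CPM in both lines skipped. The expressed genes on each side were present in both lines, KLHL9 at 46.4, 77.3 and 61.7 CPM in T24 against 85.3, 141 and 104 CPM in UM-UC-3, and TUSC1 at 28.3, 30.8 and 17.7 CPM and 13.1, 10.4 and 6.95 CPM.

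A comparable run on the X chromosome, in the same kind of order, went from NXT2 to PAK3. It held ACSL4, which activates arachidonic acid for membrane lipids, at 247, 179 and 273 CPM in T24, together with AMMECR1 at 26.9, 69.9 and 38.2 CPM and TMEM164 at 31.1, 9.59 and 61.3 CPM, and none of the 3 was listed in UM-UC-3. PAK3, a kinase activated by RAC and CDC42, stood at 18.7, 8.25 and 3.03 CPM against 0.0400, 0.147 and 0.140 CPM, and ALG13 beyond it at 51.0 ± 6.85 CPM in T24 and 52.5 ± 2.22 CPM in UM-UC-3 (mean ± SD, n = 3 libraries, as for all values written this way).

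**Figure D1:**
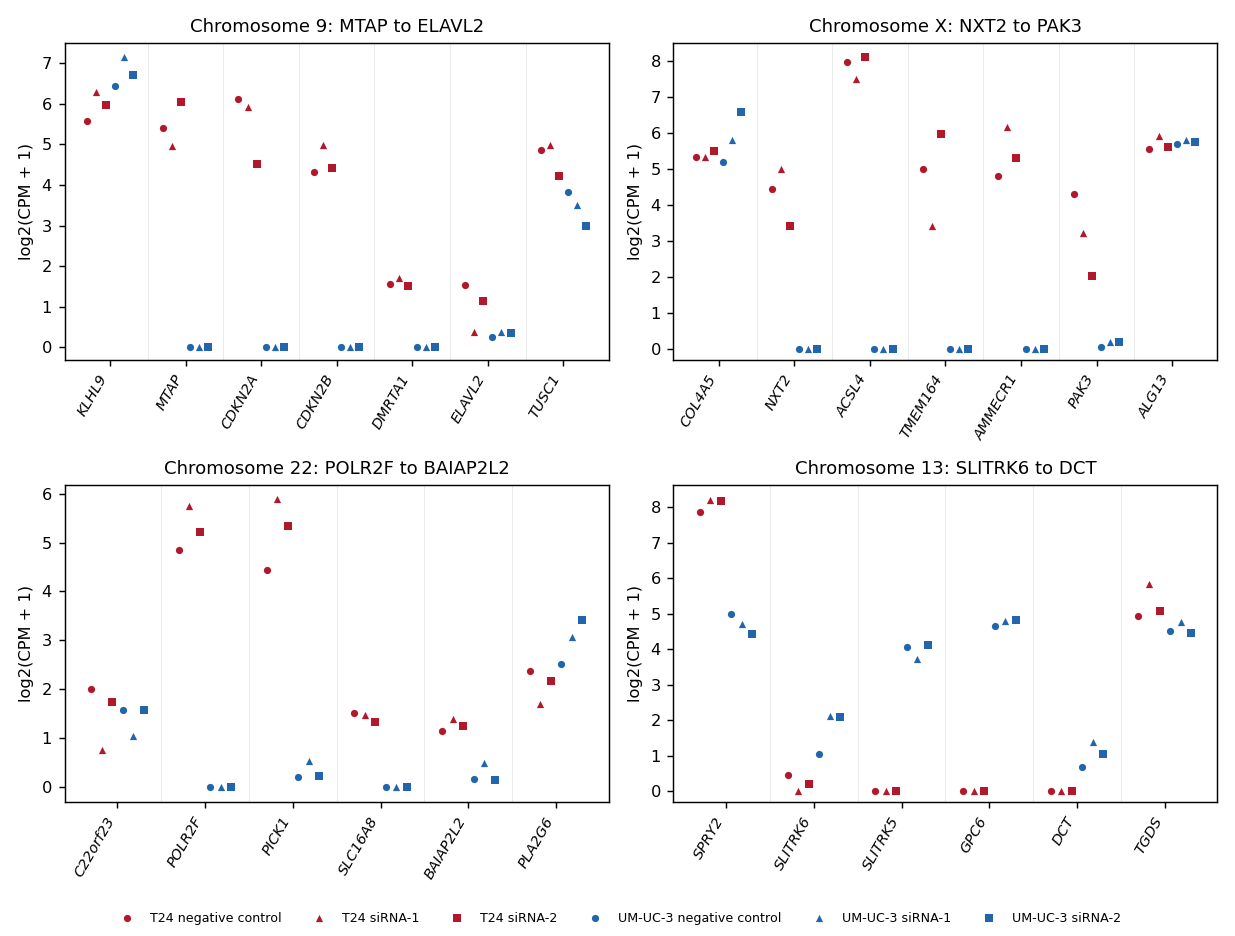
Levels of neighbouring genes in 4 runs, in gene order, as log2(CPM + 1) per library (circles negative control, triangles siRNA-1, squares siRNA-2, T24 in red and UM-UC-3 in blue). Genes under a mean of 1 CPM in both lines are left out of the order. The outer gene on each side of a run is expressed in both lines, while the inner genes are at or near 0 in every library of 1 line: UM-UC-3 for the first 3 panels and T24 for the run from SLITRK6 to DCT.

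In all, 22 runs of 3 or more neighbouring protein-coding genes stood under 0.5 CPM in every library of 1 line and at a mean of 1 CPM or more in the other, holding 78 genes. UM-UC-3 was the low line in 13 runs and T24 in 9. Over single genes, 474 of 12314 were low in UM-UC-3 by this measure and 495 in T24. On chromosome 5, CDH18, CDH12, PRDM9 and CDH10 formed a run low in T24, with CDH12, a neuronal cadherin, at 3.48, 5.09 and 6.42 CPM in UM-UC-3. On chromosome 13, SLITRK6, SLITRK5, GPC6 and DCT did so, with GPC6, a glypican that carries heparan sulfate, at 24.2, 26.7 and 27.3 CPM in UM-UC-3 and SLITRK5, a neuronal membrane protein, at 15.8, 12.1 and 16.4 CPM, neither listed in T24. Runs low in UM-UC-3 included PICK1 (39.5 ± 18.6 CPM in T24), POLR2F, SLC16A8 and BAIAP2L2 on chromosome 22, and AREG, BTC and PARM1 on chromosome 4. POLR2F stood at 27.8, 52.5 and 36.4 CPM in T24 and was not listed in UM-UC-3. Whether its reads were dropped in the annotation of the UM-UC-3 files was not tested. Further runs low in T24 were RERGL, PIK3C2G and PLCZ1 on chromosome 12, ADD2 and VAX2 (59.1% exon overlap) with 1 gene lacking a symbol on chromosome 2, 2 sets of zinc finger genes on chromosome 19 (ZNF43, ZNF257 and ZNF492, and ZNF583, ZNF471 and ZFP28), and MAGEA4, GABRE, MAGEA10 and GABRA3 on the X chromosome. Further runs low in UM-UC-3 were C1orf115, MTARC2 and MTARC1 on chromosome 1, IL1RL1, IL18R1 and SLC9A2 as well as SCN3A, SCN2A and CSRNP3 on chromosome 2, MAP2K6, KCNJ16 and KCNJ2 on chromosome 17, TNFRSF11B, MAL2 and CCN3 on chromosome 8, ACTR3C, LRRC61 and ZBED10P on chromosome 7, PCDHGB7, PCDHGA11 and PCDHGA12 on chromosome 5, and CTAGE4, ARHGEF35, OR2A7, CTAGE8 and ARHGEF5 on chromosome 7. The 3 protocadherins have 37.5 to 45.3% exon overlap. These, the zinc finger genes and the CTAGE and ARHGEF genes have near-identical copies or shared exons, so their counts are uncertain. SCN3A stood at 12.9, 0.0362 and 0.336 CPM in T24, so its run rests on the negative control library alone. When every gene also had to reach 1 CPM on average without any 1 library of the higher line, a condition added after seeing the data, 16 runs were left, 7 low in T24 and 9 low in UM-UC-3. The runs lost were those of CDH12, VAX2, SCN3A, MAL2, ACTR3C and the protocadherins.

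Among the genes of RB and cell cycle control, 6 of 25 tested passed higher in T24 and 5 higher in UM-UC-3, and 6 were separated. These shares are near those of all tested genes (24.9%, 23.0% and 19.7%), so the counts set the list apart in no way. CCND2, a D-type cyclin that drives entry into the cell cycle, was at 49.2, 52.7 and 57.7 CPM in UM-UC-3 against 0, 0 and 0 CPM in T24. CDKN1A, an inhibitor of cyclin-dependent kinases, passed higher in T24 (275 ± 117 against 108 ± 54.7 CPM), as did MDM4, a relative of the ubiquitin ligase MDM2 (52.4 ± 6.0 against 14.5 ± 4.24 CPM), which was separated. RB1, at 139 ± 24.8 and 157 ± 7.97 CPM, and MDM2, at 69.9 ± 29.2 and 60.8 ± 11.5 CPM, did not pass. CCND1 did not pass either, at 692 ± 161 and 549 ± 224 CPM.

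RAS genes and genes of its feedback were more often higher in T24, 15 of 29 tested against 5 higher in UM-UC-3, with a median difference of 0.71 beside 0.03 over all tested genes. Of all tested genes 24.9% passed higher in T24 and 23.0% in UM-UC-3. HRAS stood at 79.6, 127 and 110.3 CPM in T24 against 32.8, 31.4 and 31.1 CPM in UM-UC-3 (difference 1.68 ± 0.23, adjusted p = 0.000129). NRAS did not pass, at 209 ± 55.9 and 261 ± 53.1 CPM. The sprouty proteins SPRY2 and SPRY4, which restrain signalling from receptor tyrosine kinases, were separated higher in T24, SPRY2 at 231, 296 and 285 against 30.7, 24.9 and 20.6 CPM and SPRY4 at 384 ± 90.7 against 66.1 ± 20.6 CPM. ETV1 and ETV4, ETS factors downstream of ERK, were also separated higher in T24 (differences 2.61 and 1.59). DUSP4, a phosphatase that inactivates ERK in the nucleus, went the other way, at 0.928, 0.434 and 0.486 CPM in T24 against 39.2, 41.3 and 30.4 CPM in UM-UC-3. DUSP6, another ERK phosphatase, passed higher in T24 (36.2 ± 26.2 against 16.9 ± 4.43 CPM) but was not separated, and 40.5% of its exon bases overlap another gene.

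Genes of epithelial cell contacts were mostly higher in T24. Of 18 tested genes of epithelial junctions and polarity, 12 were separated higher in T24 and 1 higher in UM-UC-3, with a median difference of 4.10. Over all tested genes 10.2% and 9.53% were separated in these directions. A gene near 0 in UM-UC-3 reached the test's minimum of 1 CPM through T24 alone, which raises this median. Without that minimum, 32 members gave a median of 0.66, with 12 and 1 separated. DSP, the desmoplakin that ties desmosomes to keratin filaments, stood at 159.7, 132 and 156 CPM in T24 against 2.08, 3.89 and 2.70 CPM in UM-UC-3 (difference 5.29 ± 0.26, adjusted p = 4.98e-08). JUP, the plakoglobin of desmosomes and adherens junctions, stood at 135, 97.2 and 148 CPM and 1.84, 2.49 and 1.96 CPM. DSC2, a desmosomal cadherin, was at 63.4, 42.2 and 138 CPM against 0, 0 and 0.351 CPM. No library of 1 line overlapped the other for these 3 genes. That held for all but 11 of the 2716 separated genes and for 52.8% of all tested genes. CLDN1, a claudin of tight junctions, was at 1038 ± 282 CPM in T24 and 31.2 ± 13.7 CPM in UM-UC-3, and LLGL2, a protein of basolateral polarity, at 37.1 ± 7.12 and 0.179 ± 0.156 CPM. OCLN, MARVELD2, PKP2, DSG2, CLDN12 and F11R were separated in the same direction, with 36.6% exon overlap for F11R. PKP3, a plakophilin, was the gene separated higher in UM-UC-3 (3.40 ± 0.408 against 13.5 ± 1.22 CPM). TJP1, the scaffold of tight junctions, did not pass, at 149.7 ± 20.6 and 118 ± 7.23 CPM.

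E-cadherin itself was near 0 in both lines. CDH1 stood at 0.211, 0.181 and 0.0374 CPM in T24 and was listed in no UM-UC-3 library, which is below the 1 CPM required for the test. EPCAM was at 0.0844, 0.0724 and 0.0374 CPM in T24 and not listed in UM-UC-3, and ESRP1, an epithelial splicing factor, at 1.43, 0.724 and 0.598 CPM and not listed. Thus T24 carried desmosomal and tight junction RNA at high levels with CDH1 and EPCAM nearly absent.

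**Figure D2:**
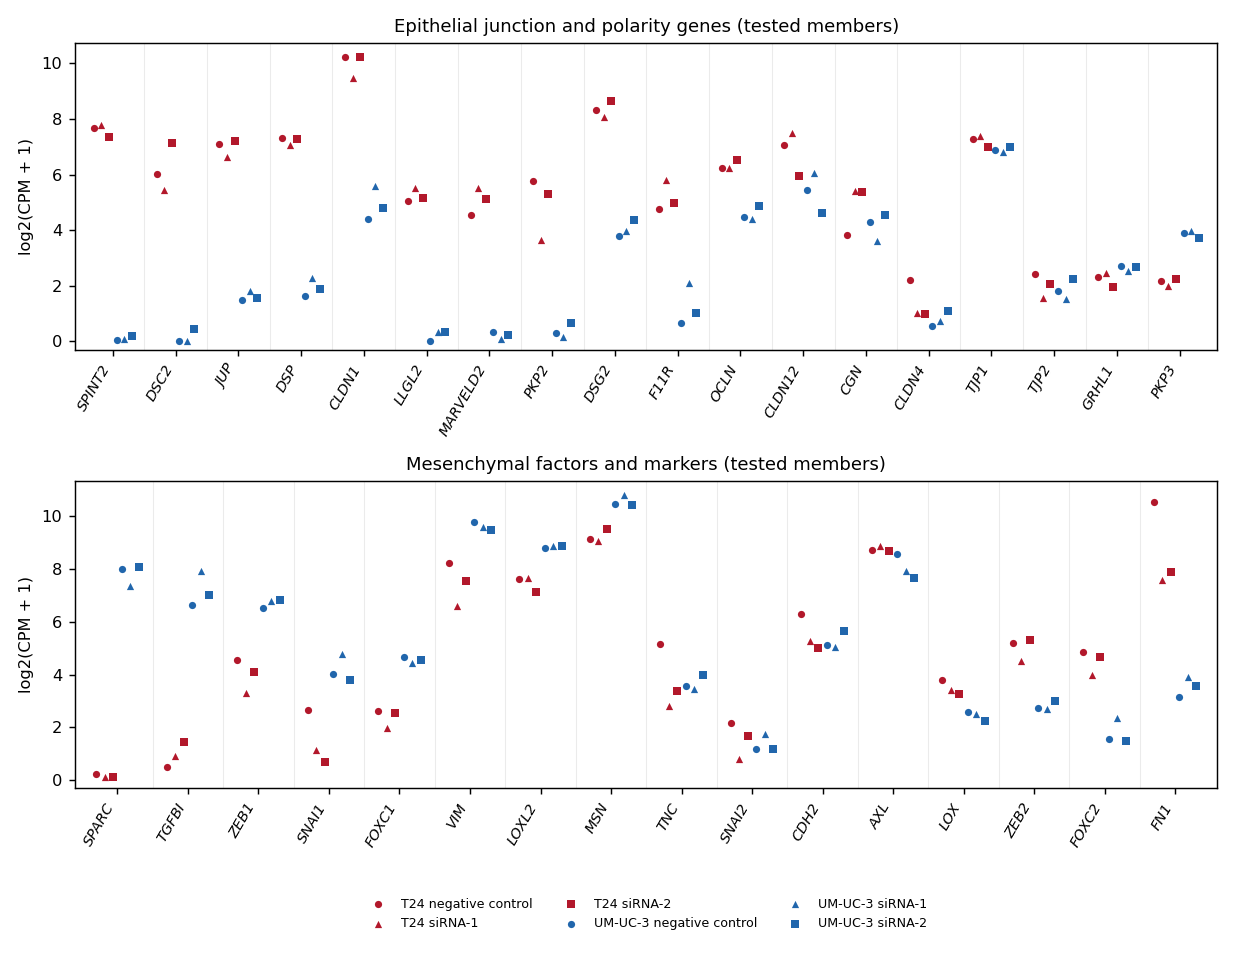
Levels of the tested junction and polarity genes (upper panel) and mesenchymal genes (lower panel) as log2(CPM + 1) per library, circles negative control, triangles siRNA-1 and squares siRNA-2, T24 in red and UM-UC-3 in blue. In the upper panel 12 of 18 genes are separated higher in T24, while in the lower panel SPARC and TGFBI stand far higher in UM-UC-3 and FN1 far higher in T24.

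Uroplakins were at or near 0 in both lines, while other markers of urothelial differentiation were detected. UPK3A, SNX31 and CYP4B1 were listed in neither, and the uroplakins UPK1A, UPK1B, UPK2 and UPK3B stayed under 1 CPM on average in each line. GATA3, a luminal factor, averaged 0.121 CPM in T24 and 1.08 CPM in UM-UC-3. FOXA1 was separated higher in T24 at 11.6, 9.66 and 7.93 against 3.76, 2.71 and 3.05 CPM, as were PPARG (11.9 ± 5.42 against 1.99 ± 0.559 CPM), a nuclear receptor of luminal cells, and KLF5 (19.9 ± 9.55 against 4.26 ± 0.639 CPM). TBX3, a T-box factor, was separated higher in UM-UC-3 (5.23 ± 0.633 against 28.5 ± 8.35 CPM). Of the 10 tested members of this list 3 passed higher in UM-UC-3 and 6 in T24, beside 23.0% and 24.9% of all tested genes. The list summed to 193 to 236 CPM in T24 and 95.3 to 153 CPM in UM-UC-3, and its largest member in every library was ERBB2, a receptor tyrosine kinase, at 126, 148 and 114 CPM in T24 against 46.4, 54.9 and 79.0 CPM in UM-UC-3. The uroplakins, which define the labelled tissue, contributed almost nothing to these sums.

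Basal keratins were absent as well: KRT5, KRT6A, KRT6B and KRT14 were listed in neither line. Other genes of the basal list were higher in T24, 6 of 10 tested, with 1 higher in UM-UC-3. Over all tested genes 24.9% and 23.0% passed in these directions. SFN, the stratifin of squamous cells, stood at 194, 54.3 and 144 CPM in T24 against 0.280, 0.147 and 0.0702 CPM in UM-UC-3. LAMB3, a chain of the laminin under epithelia, was at 900.3, 1079.9 and 803 CPM against 90.4, 78.4 and 45.5 CPM, and ITGB4, the integrin of hemidesmosomes that binds it, at 15.7, 22.4 and 32.6 CPM against 0, 0 and 0.175 CPM. All 3 were separated. COL17A1, another hemidesmosome protein, passed higher in UM-UC-3, at 6.58 ± 4.23 against 35.0 ± 28.2 CPM. Among keratins, KRT8 was the one separated, at 795, 719 and 492 CPM in T24 against 29.1, 24.4 and 24.2 CPM in UM-UC-3 (difference 4.61 ± 0.21, adjusted p = 3.53e-08), whereas its partner KRT18 stood at 327, 335 and 285 and 250.1, 191 and 186 CPM (difference 0.60 ± 0.20, adjusted p = 0.0307). Keratin genes have pseudogene copies, and their counts are uncertain.

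Mesenchymal genes split between the lines. Of 16 tested, 7 were separated higher in UM-UC-3 and 3 higher in T24, beside 9.53% and 10.2% of all tested genes. SPARC, a collagen-binding matrix glycoprotein, stood at 257, 161 and 272 CPM in UM-UC-3 against 0.169, 0.0724 and 0.0748 CPM in T24 (difference -7.67 ± 0.26, adjusted p = 8.16e-09), and TGFBI, a matrix protein induced by TGF-beta, at 98.3, 243 and 128 CPM and 0.422, 0.905 and 1.72 CPM. ZEB1, a repressor of epithelial genes, was at 22.6, 8.76 and 16.2 CPM in T24 against 90.7, 111 and 113 CPM in UM-UC-3, while its relative ZEB2 was at 35.8, 22.1 and 38.9 CPM and 5.72, 5.50 and 6.95 CPM. The 2 factors were separated in opposite directions. VIM, the intermediate filament vimentin, was higher in UM-UC-3 at 874, 762 and 715 CPM against 295, 96.9 and 187 CPM, with 24.4% exon overlap. FN1, fibronectin, was higher in T24 at 1481, 189.5 and 238 CPM against 7.96, 14 and 10.9 CPM, a difference of 5.12 ± 0.53. N-cadherin CDH2, at 48.6 ± 25.1 and 38.5 ± 9.80 CPM, did not pass, and TWIST1, TWIST2 and PRRX1 were listed in neither line.

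The 12 protein-coding genes with the largest differences toward T24 were under 1 CPM in every UM-UC-3 library. MT1E, a metallothionein that binds zinc and copper, stood at 459, 1106 and 352 CPM in T24 and was listed in no UM-UC-3 library, at least 4290.5-fold higher; its family has close copies that can share reads. PADI2, which converts arginine in proteins to citrulline, stood at 299.5, 288 and 855 CPM in T24 against 0.20, 0.0733 and 0.0351 CPM in UM-UC-3 (difference 8.58 ± 0.33, adjusted p = 1.15e-08). SPINT2, an inhibitor of the proteases matriptase and hepsin, was at 205, 221 and 163 CPM against 0.0400, 0.0733 and 0.140 CPM. ACSL4 belonged to this group too. LDOC1, a leucine zipper protein, stood at 114, 213 and 162 CPM in T24, FAM83H, which binds casein kinase and keratins, at 104, 260.3 and 232 CPM, and CYBA, a membrane subunit of NADPH oxidase, at 203, 75.8 and 231 CPM. None of the 3 was listed in UM-UC-3, which puts T24 at least 1094-fold, 1334-fold and 1141-fold higher. ICAM1, an adhesion receptor for leukocytes with 23.6% exon overlap on the opposite strand, was at 137, 202 and 105 CPM and not listed in UM-UC-3. QPRT, an enzyme of NAD synthesis, and EPS8L2, a regulator of actin, closed the 12 largest with differences of 6.77 and 6.76.

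PAX8, a factor of kidney and thyroid development, stood at 313, 105 and 196 CPM in T24 against 0.240, 0.367 and 0.421 CPM in UM-UC-3. INHBA, the subunit of activin A, was at 178, 80.6 and 201 CPM in T24 and not listed in UM-UC-3, at least 1028-fold higher. In both, the T24 value with siRNA-1 was the lowest of the line, and all T24 values stood far above UM-UC-3.

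**Figure D3:**
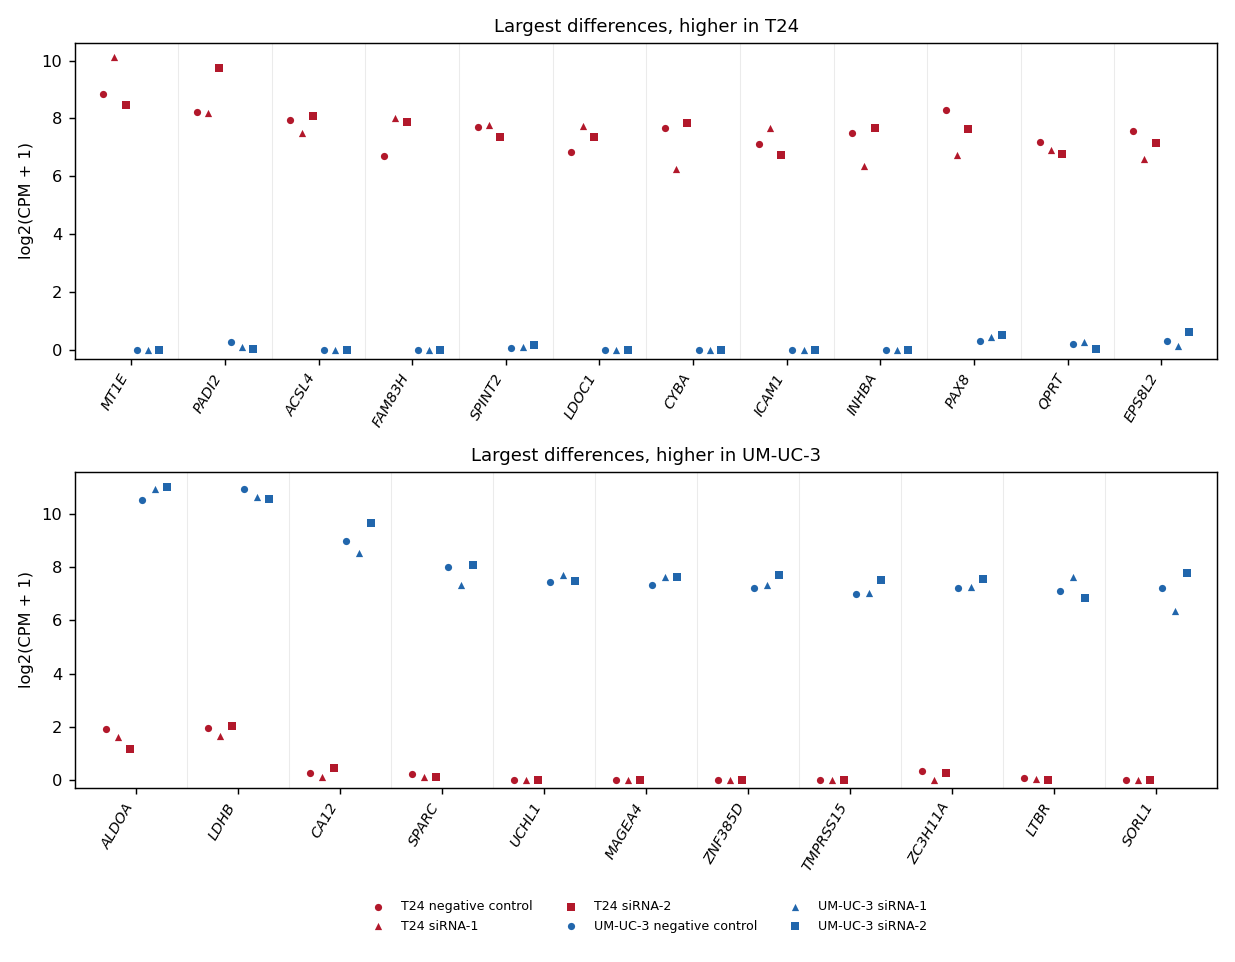
The 12 protein-coding genes with the largest difference toward T24 and 11 of the 12 toward UM-UC-3, as log2(CPM + 1) per library, circles negative control, triangles siRNA-1 and squares siRNA-2, T24 in red and UM-UC-3 in blue. In each gene the 3 libraries of the higher line lie above 6 on this scale and those of the other line near 0, except ALDOA and LDHB in T24, which lie between 1 and 2.1.

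Of the 12 largest differences in the other direction, which also hold SPARC and MAGEA4, 3 involved genes with 20% or more of their exon bases in exons of another gene. ALDOA, a glycolytic aldolase, stood at 1494, 1960.3 and 2093 CPM in UM-UC-3 against 2.78, 2.03 and 1.23 CPM in T24, with 53.5% exon overlap. LDHB, a lactate dehydrogenase subunit, was at 1974, 1596 and 1529 CPM against 2.87, 2.17 and 3.10 CPM with 33.4% overlap, and ZC3H11A, a nuclear RNA export protein, at 148, 154 and 188 CPM against 0.253, 0 and 0.187 CPM with 93.6%. The part of this overlap in the differences was not tested. CA12, a carbonic anhydrase at the cell surface with no overlap, stood at 502, 371 and 807 CPM in UM-UC-3 against 0.211, 0.0724 and 0.374 CPM in T24 (difference -8.78 ± 0.25, adjusted p = 4.44e-09). UCHL1, a ubiquitin hydrolase of neurons, was at 174, 207 and 176 CPM in UM-UC-3 and listed in no T24 library, at least 1202-fold higher. ZNF385D, a zinc finger protein, was at 148, 162 and 206 CPM, TMPRSS15, the enteropeptidase of the gut, at 125, 129 and 185 CPM, and SORL1, a sorting receptor of endosomes, at 146, 80.2 and 221 CPM, with none of them listed in T24. LTBR, the lymphotoxin beta receptor, stood at 136, 197 and 115 CPM against 0.0422, 0.0362 and 0 CPM. Beyond these 12, and named here after its values were seen, STAT6, which transmits interleukin-4 signals, stood at 119, 161 and 116 CPM against 0.548, 0.0362 and 0.262 CPM.

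Genes listed in 1 line alone, at a mean of 1 CPM or more, numbered 319 in T24 and 431 in UM-UC-3. Protein-coding genes made up 217 and 264 of them, and 79 and 115 reached 10 CPM. For 8 and 6 of them, TBCE among both, the other line's files listed the same name under another identifier. Besides genes above, NPNT, an integrin ligand of the kidney, was at 153, 42.8 and 123 CPM, HAVCR1, a kidney injury receptor, at 80.3, 78.6 and 108 CPM and ETFA, a mitochondrial electron carrier, at 93.6, 115 and 39.7 CPM in T24. ELOVL2, which elongates polyunsaturated fatty acids, was at 131, 80.1 and 105 CPM and ADD2, a cytoskeletal adducin, at 107, 95.7 and 132 CPM in UM-UC-3.

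The promoters of 4 genes that were listed in 1 line alone are shown because their CpG content differs widely; LDOC1 and CYBA were present in T24, and UCHL1 and MAGEC2 in UM-UC-3. Each is the 250 bases before the transcription start in RefSeq on GRCh38.p14, 5′ to 3′ on the gene's strand, with CpG in capitals. The LDOC1 promoter lies at chrX:141177130-141177379 (minus strand) and holds 29 CpG, that of CYBA at chr16:88651054-88651303 (minus strand) with 18, that of UCHL1 at chr4:41256678-41256927 (plus strand) with 20, and that of MAGEC2 at chrX:142205291-142205540 (minus strand) with 6, beside a median of 11 over 27305 promoters.
LDOC1: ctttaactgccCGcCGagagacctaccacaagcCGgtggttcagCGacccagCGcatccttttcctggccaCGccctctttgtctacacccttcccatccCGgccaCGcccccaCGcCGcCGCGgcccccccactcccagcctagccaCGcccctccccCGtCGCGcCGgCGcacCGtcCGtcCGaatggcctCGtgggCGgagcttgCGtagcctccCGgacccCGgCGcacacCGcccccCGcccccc
CYBA: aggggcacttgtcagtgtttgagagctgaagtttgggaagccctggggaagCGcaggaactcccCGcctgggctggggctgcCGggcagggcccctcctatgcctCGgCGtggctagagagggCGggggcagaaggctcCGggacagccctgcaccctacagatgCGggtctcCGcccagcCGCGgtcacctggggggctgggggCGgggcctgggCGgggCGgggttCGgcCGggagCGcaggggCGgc
UCHL1: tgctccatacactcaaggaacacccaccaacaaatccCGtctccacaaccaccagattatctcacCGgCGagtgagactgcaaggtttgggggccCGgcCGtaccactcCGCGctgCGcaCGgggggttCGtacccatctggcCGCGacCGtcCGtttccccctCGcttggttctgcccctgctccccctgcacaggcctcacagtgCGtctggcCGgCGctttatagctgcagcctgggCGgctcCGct
MAGEC2: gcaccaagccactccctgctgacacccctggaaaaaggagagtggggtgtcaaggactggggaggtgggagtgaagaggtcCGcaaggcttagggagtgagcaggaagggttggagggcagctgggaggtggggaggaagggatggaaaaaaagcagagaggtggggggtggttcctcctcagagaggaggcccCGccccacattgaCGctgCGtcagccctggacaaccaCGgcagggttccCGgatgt

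CpG content differed somewhat between separated and other genes. Promoters of 300 bases, 250 before and 50 after the start, were found for 10251 of the tested genes, which is 74.5%, so these shares describe those genes only. The ratio of observed to expected CpG was 0.6 or more in 76.1% of promoters of genes separated higher in T24, in 71.2% of those higher in UM-UC-3 and in 87.3% of tested genes that did not pass. The letters TATAAA on either strand occurred in 6.33%, 8.10% and 4.92% of them, and in 12% of all promoters in the table. TGACTCA, a site of AP-1, occurred in 3.84%, 4.16% and 2.67%, and in 4.92% of all promoters. A match is a description of the letters alone.

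Cancer-testis antigens, normally confined to germ cells, were higher in UM-UC-3 for 7 of the 9 tested members, all of them separated, and 3 of the 7 were listed in both lines. Over all tested genes 9.53% were separated higher in UM-UC-3. The other 30 of the list's 39 genes were under the test's minimum or listed in neither line. MAGEA4 stood at 162, 198 and 197 CPM in UM-UC-3, MAGEC2 at 102, 124 and 127 CPM and MAGEA10 at 64.3, 102 and 81.2 CPM, and none was listed in T24. The MAGEC2 promoter above was the poorest in CpG of those shown. MAGEA6 was at 132, 141 and 108 CPM against 0.675, 0.724 and 1.16 CPM and MAGEA3 at 30.6, 36.2 and 25.4 CPM against 0.886, 0.796 and 0.785 CPM, but these are near-identical copies whose reads can be split. MAGED1 and MAGED2, family members known to be widely expressed in somatic tissue, were separated the other way, MAGED1 at 267 ± 66.6 CPM in T24 and 26.8 ± 8.57 CPM in UM-UC-3, and MAGED2 at 102 ± 19.3 and 30.8 ± 5.74 CPM.

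Genes of HOX clusters were separated in both directions. Of 22 tested, 4 were separated higher in T24 and 7 higher in UM-UC-3, beside 10.2% and 9.53% of all tested genes. Among the 16 tested members listed in both lines, 0 were separated higher in T24 and 5 higher in UM-UC-3. HOXC9 stood at 8.14, 11.9 and 12.3 CPM in T24 and was not listed in UM-UC-3, while HOXC13 at 11.7, 9.64 and 12.8 CPM and HOXD13 at 7.72, 5.35 and 4.14 CPM in UM-UC-3 were not listed in T24. HOXC4 was higher in UM-UC-3 at 9.32, 10.8 and 8.10 CPM against 0.127, 0.0724 and 0 CPM. Thus members of 1 cluster, HOXC, were separated in both directions. HOXA9, with 27.0% exon overlap, was at 6.50, 8.72 and 5.98 CPM in T24 and not listed in UM-UC-3. In the middle of the HOXB cluster, HOXB2 to HOXB7 did not pass, for instance HOXB3 at 23.2 ± 6.59 and 24.1 ± 1.68 CPM.

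Developmental transcription factors outside the HOX clusters were separated at 21 of 44 tested, 12 higher in T24 and 9 in UM-UC-3, beside 19.7% of all tested genes. PAX2, a kidney factor like PAX8, was at 43.4, 49.4 and 27.4 CPM in T24 against 5.76, 6.74 and 4.98 CPM in UM-UC-3, and LHX1, a factor of the early kidney, at 5.10, 3.29 and 7.96 CPM in T24 and not listed in UM-UC-3. BNC1 (basonuclin, a zinc finger of stratified epithelium) stood at 49.1, 13.4 and 30.0 CPM and was not listed in UM-UC-3, and TFAP2C, an AP-2 factor, stood at 41.5, 48.2 and 52.1 against 1.44, 2.31 and 2.1 CPM. EYA4, a phosphatase and coactivator, stood at 36.3, 27.2 and 37.7 CPM in UM-UC-3, with SALL1, a zinc finger of kidney progenitors, at 12.4, 10.6 and 10.8 CPM, and neither was listed in T24. Kidney factors were thus found in both lines. Of 14 tested imprinted genes 5 passed higher in each line, and 5 were separated higher in UM-UC-3 and 1 in T24. Over all tested genes 23.0% and 24.9% passed higher in UM-UC-3 and T24, and 9.53% and 10.2% were separated. The one separated in T24 was PHLDA2, a growth-restraining gene of the placenta, at 56.8, 57.7 and 56.5 CPM against 10.0, 11.4 and 3.54 CPM, and IGF2R, which clears IGF2, passed higher in T24 without being separated (394 ± 91.0 against 246 ± 45.1 CPM). In the other direction PLAGL1, a zinc finger growth suppressor, was at 77.4, 85.5 and 161 CPM in UM-UC-3 against 0.0422, 0.0362 and 0.187 CPM in T24, H19 at 5.84, 8.10 and 44.2 CPM against 0.0422, 0.145 and 0.224 CPM, and KCNQ1OT1 at 7.48, 8.03 and 6.35 CPM and not listed in T24. IGF2, the growth factor beside H19, was at 14.2, 34.2 and 15.8 CPM against 1.18, 0.579 and 0.299 CPM, with 75.0% exon overlap.

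Extracellular matrix genes were separated in both directions. Of 33 tested, 13 were separated higher in T24 and 6 higher in UM-UC-3, beside 10.2% and 9.53% of all tested genes. Without the negative control pair, where separation needs fewer pairs, 10 were separated higher in UM-UC-3. The count over all tested genes then also rose, from 1311 to 1710. Higher in T24 were COL18A1, a collagen of basement membranes, at 434, 189.8 and 484 CPM against 6.76, 7.84 and 13.8 CPM, NID1, which links laminin to collagen IV, at 112, 59.2 and 113 against 4.28, 1.03 and 1.93 CPM, LAMA5 at 495 ± 228 against 48.4 ± 8.24 CPM, and COL4A1 at 293 ± 138 against 59.7 ± 7.50 CPM. The fibrillar collagens COL3A1, COL5A1, COL5A2 and COL11A1 were separated higher in UM-UC-3. COL5A1 stood at 18.3, 32.3 and 52.2 CPM in UM-UC-3, COL11A1 at 9.92, 14.9 and 24.8 CPM and COL3A1 at 3.32, 6.74 and 13.1 CPM, against 0, 0.165 and 0 CPM on average in T24. LAMA1, the laminin chain of early embryos, was at 30.4, 17.2 and 20.9 CPM in UM-UC-3 against 0, 0 and 0 CPM in T24. COL12A1, a collagen on fibril surfaces, was separated higher in T24, at 194 ± 33.3 against 6.23 ± 1.88 CPM.

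Of 32 tested matrix proteases and inhibitors, 7 were separated higher in T24 and 10 higher in UM-UC-3 (10.2% and 9.53% of all tested genes). MMP14, a membrane-bound collagenase that activates MMP2, stood at 305, 269 and 200.4 CPM in UM-UC-3 against 1.86, 1.59 and 1.01 CPM in T24 (difference -6.70 ± 0.23, adjusted p = 8.16e-09). MMP2 was at 22.3, 25.1 and 8.07 CPM against 0, 0 and 0 CPM, TIMP2, the inhibitor that MMP14 uses to bind pro-MMP2, at 29.6 ± 7.63 CPM in T24 and 142 ± 29.8 CPM in UM-UC-3, and ADAMTS12 at 99.4, 107 and 148 CPM in UM-UC-3 against 0.127, 0.0724 and 0.0374 CPM. MMP14, MMP2 and TIMP2 were each separated higher in UM-UC-3. TFPI2, an inhibitor of plasmin and other serine proteases, was at 364, 521 and 676 CPM in T24 against 12.6, 10.8 and 6.49 CPM, and ADAMTS9, an aggrecanase, at 18.5, 30.0 and 35.4 CPM against 0, 0 and 0 CPM.

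Of 17 tested integrins 5 were separated, beside 19.7% of all tested genes. ITGA6, the partner of ITGB4, was at 369, 312 and 621 CPM in T24 against 57.5, 43.5 and 65.4 CPM in UM-UC-3, and ITGA10, a collagen receptor, at 80.4, 72.3 and 40.6 against 3.28, 2.46 and 2.18 CPM. ITGA4, which binds fibronectin and VCAM1, was at 21.8, 15.5 and 12.2 CPM in UM-UC-3 against 0, 0 and 0 CPM, and ITGB1, the common beta chain, passed higher in UM-UC-3 (919 ± 349.6 against 1853 ± 259.7 CPM). Of 18 tested cadherins and protocadherins, 9 were separated higher in UM-UC-3 and 2 higher in T24, beside 9.53% and 10.2% of all tested genes. PCDH10, a protocadherin of the nervous system, stood at 14.6, 23 and 38.6 CPM in UM-UC-3 with none listed in T24, and its relative PCDH9 at 10.1, 13.9 and 22.7 CPM against 0.0422, 0.0362 and 0.0374 CPM. Among the 13 tested members listed in both lines, 5 were separated higher in UM-UC-3.

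Receptor tyrosine kinases were divided almost evenly, 7 of 27 tested separated higher in T24 and 8 higher in UM-UC-3, beside 10.2% and 9.53% of all tested genes. EGFR stood at 674, 243 and 464 CPM in T24 against 168, 107 and 101 CPM in UM-UC-3 (difference 1.79 ± 0.24, adjusted p = 9.71e-05), and MST1R, the receptor of macrophage-stimulating protein, at 29.9, 19.4 and 15.5 against 0.360, 0.257 and 0.175 CPM. FGFR1 was higher in UM-UC-3, at 198, 123 and 223 CPM against 38.3, 17.8 and 20.3 CPM, as were ROR2, a receptor of WNT5A, at 14, 13 and 11.8 against 0.211, 0 and 0 CPM, and DDR2, a receptor of fibrillar collagen, at 33.9, 54.6 and 43.9 against 4.89, 2.89 and 2.17 CPM. TIE1, a receptor best known in endothelium, was at 54.1, 36.0 and 17.9 CPM in UM-UC-3 against 0.0422, 0.145 and 0.299 CPM in T24. Its relative TEK stood at 2.04, 2.53 and 5.33 CPM in UM-UC-3, and ANGPT1, the ligand of TEK, at 28.4, 35.4 and 40.2 CPM, with neither listed in T24. The endothelial markers CDH5, VWF and CLDN5 averaged 0.0117, 0.167 and 0.0623 CPM in UM-UC-3, and KDR was listed in neither line. The 3 members of the endothelial list that were tested were each separated, TEK and PECAM1, an adhesion molecule (0.566 ± 0.538 against 3.24 ± 1.15 CPM), higher in UM-UC-3 and ESAM, a junction molecule (4.65 ± 0.684 against 0.793 ± 0.276 CPM), higher in T24. The list summed to 4.41 to 6.28 CPM in T24 and 6.89 to 8.38 CPM in UM-UC-3. MET, at 163 ± 112 and 231 ± 83.7 CPM, did not pass.

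Several ligands of the EGF receptor family were higher in T24. HBEGF stood at 95.9, 178 and 196 CPM in T24 against 31.9, 29.1 and 11.9 CPM in UM-UC-3, TGFA at 45.2, 19.6 and 33.8 against 1.08, 2.02 and 1.61 CPM, and AREG at 27.1, 4.27 and 15.1 CPM in T24 with none listed in UM-UC-3. EREG, whose gene neighbours AREG, stood at 29.4, 54.5 and 42.1 CPM in UM-UC-3 against 0.590, 0.109 and 0.486 CPM in T24. BTC, betacellulin, passed higher in T24 without being separated (2.48 ± 1.53 against 0.325 ± 0.216 CPM), and EREG was separated in the direction opposite to HBEGF, TGFA and AREG. Over all growth factor ligands 12 of 26 tested passed higher in T24 and 5 higher in UM-UC-3 (9 without the negative control pair), among the former PDGFB (65.8 ± 18.1 against 1.13 ± 0.516 CPM) and GDF15, a stress-induced factor (281, 40.3 and 62.9 against 0.160, 0.110 and 0 CPM), whose T24 control was the highest library. Cytokines and chemokines were called higher in T24 for 13 of 19 tested and in UM-UC-3 for 2, with a median of 1.84. The shares over all tested genes, to set beside the ligand and the cytokine list, were 24.9% and 23.0%. Without the minimum of 1 CPM, 30 members of the cytokine list gave a median of 0.69, with 13 and 3 called. TNF was at 60.3, 14.3 and 14 CPM in T24 against 0.120, 0.220 and 0 CPM in UM-UC-3, and CCL2, which attracts monocytes, at 42.6, 41.3 and 27.7 CPM in UM-UC-3 against 0, 0 and 0 CPM in T24. CXCL8, which attracts neutrophils, was at 213, 23.3 and 41.8 CPM in T24 against 9.08, 18.2 and 1.47 CPM in UM-UC-3, and passed without being separated.

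Antigen presentation genes were called higher in T24 for 10 of 23 tested and in UM-UC-3 for 4, beside 24.9% and 23.0% of all tested genes. TAPBP, which loads peptides on class I molecules, was at 418, 476 and 428 CPM in T24 against 81.5, 112 and 104 CPM in UM-UC-3. HLA-C was higher in UM-UC-3 (37.5 ± 9.86 against 189.5 ± 21.8 CPM), while HLA-B (36.6 ± 16.9 and 46.2 ± 12.8 CPM) and B2M (583 ± 111 and 508 ± 48.0 CPM) did not pass. HLA alleles differ from the reference, and how well their reads align is uncertain. Sensors of nucleic acids were separated in opposite directions. STING1, the adaptor of cytosolic DNA sensing, stood at 26.1, 16.9 and 8.67 CPM in UM-UC-3 against 0.127, 0.651 and 0.262 CPM in T24, and IFI16, a DNA sensor, at 25.9, 36.8 and 30.8 against 2.24, 1.85 and 1.65 CPM. IFIH1, a sensor of double-stranded RNA, was at 129, 40.7 and 28.9 CPM in T24 against 5.04, 6.30 and 6.46 CPM in UM-UC-3, and IRF7, which drives interferon genes, at 34.0, 75.5 and 26.6 against 1.84, 3.30 and 3.33 CPM. IFIT2, an interferon-induced inhibitor of viral translation, was at 276, 27.0 and 10.3 CPM in T24 against 12.4, 14.6 and 13.1 CPM in UM-UC-3. Its T24 values spanned the UM-UC-3 range, and it did not pass. Of the 31 tested genes of this list 11 passed higher in T24 and 6 higher in UM-UC-3, with a median of 0.60. These became 17 and 5 without the siRNA-2 pair (median 0.89) and 9 and 8 without the negative control pair (median 0.09).

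Genes of the WNT, NOTCH and TGF-beta pathways were separated at 10 of 29, 7 of 18 and 18 of 37 tested members, beside 19.7% of all tested genes. In the NOTCH list 44.4% of tested members passed, against 47.9% of all. FZD6, a WNT receptor, was at 136, 61.4 and 83.7 CPM in T24 against 0.0400, 0.0367 and 0.0702 CPM in UM-UC-3, and LGR4, a receptor of R-spondin, at 96.0, 54.3 and 190.2 against 7.44, 6.08 and 14.3 CPM. SFRP1, which binds WNT outside the cell, was at 11.7, 6.23 and 4.91 CPM in UM-UC-3 against 0, 0 and 0 CPM. DTX3, a ubiquitin ligase of the deltex family, stood at 43.8, 47.2 and 53.5 CPM in UM-UC-3 against 0, 0 and 0 CPM, and MAML3, a coactivator of NOTCH, at 20.2, 19.4 and 31.5 CPM in T24 against 1.08, 0.843 and 0.456 CPM. In the TGF-beta and BMP list 11 were separated higher in UM-UC-3 and 7 higher in T24. SMAD6, an inhibitor of BMP signals, was at 23.1, 31.1 and 23.8 CPM in UM-UC-3 against 1.56, 1.30 and 0.523 CPM, whereas SMAD7, an inhibitor of TGF-beta signals, was higher in T24 (50.8 ± 14.5 against 12.5 ± 1.84 CPM), as was TGFB1 (226 ± 37.5 against 58.7 ± 6.42 CPM). TGFBR3, a coreceptor, was at 29.8, 26.4 and 44.5 CPM in UM-UC-3 against 3.25, 1.05 and 1.76 CPM.

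Enzymes of retinoid and aldehyde metabolism were called higher in UM-UC-3 for 8 of 14 tested and in T24 for 2, beside 23.0% and 24.9% of all tested genes. ALDH1A1, which makes retinoic acid, stood at 86.9, 137 and 162 CPM in UM-UC-3 against 0, 0 and 0.0748 CPM in T24 (difference -6.94 ± 0.26, adjusted p = 1.13e-08). Its relative ALDH1A3 was higher in T24, at 13.6, 13.5 and 16.4 CPM against 0.0800, 0.367 and 0.105 CPM, with 28.6% exon overlap, and CYP26B1, which degrades retinoic acid, was at 80.2, 8.40 and 30.2 CPM in T24 against 0.240, 1.21 and 0.596 CPM. These ALDH1A enzymes were separated in opposite directions, and the T24 values of ALDH1A3 were well below the UM-UC-3 values of ALDH1A1, on a scale not corrected for length. Among genes of drug metabolism 11 of 33 tested passed in each direction, beside 24.9% and 23.0% of all tested genes. GSTM3, a glutathione transferase, was at 53.9, 49.3 and 47.9 CPM in UM-UC-3 against 1.73, 2.13 and 2.69 CPM in T24, while CYP2S1, a cytochrome P450, was at 8.18, 21.3 and 8.30 CPM in T24 against 0.0400, 0.0367 and 0 CPM in UM-UC-3. Metabolic isozymes passed higher in UM-UC-3 for 17 of 42 and in T24 for 9, and 21.4% were separated, near the 19.7% of all tested genes. HK1 was higher in T24 (272 ± 71.7 against 30.4 ± 3.67 CPM) and HK2 in UM-UC-3 (87.5 ± 41.0 against 247 ± 26.8 CPM), both hexokinases, and GLUL, glutamine synthetase, was at 32.1, 30.1 and 25.3 CPM in UM-UC-3 against 0.253, 0.217 and 0.486 CPM in T24.

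Apoptosis regulators passed higher in T24 for 13 of 32 tested and in UM-UC-3 for 7, the latter near the 23.0% of all tested genes and the former above their 24.9%. MCL1, an antiapoptotic BCL2 relative, was at 1065, 452 and 1141 CPM in T24 against 260.0, 203 and 195 CPM in UM-UC-3. TNFRSF11B, the decoy receptor osteoprotegerin, was at 4.22, 8.11 and 9.91 CPM in T24 and not listed in UM-UC-3, while TNFRSF10D, a decoy receptor of TRAIL, was higher in UM-UC-3 (39.5 ± 5.83 against 134 ± 18.9 CPM). Surface proteins that antibody drugs bind passed for 4 of 12 tested in each direction, about 1 gene above the share of all tested genes, with L1CAM, a neural adhesion molecule, at 26.0, 48.8 and 48.0 CPM in UM-UC-3 against 3.16, 0.579 and 0.336 CPM and CD70, a ligand of the TNF family, at 73.8 ± 46.6 CPM in T24 against 16.5 ± 3.79 CPM. In the S100 and annexin families, S100A6 was at 229.5, 137 and 138 CPM in T24 against 15.8, 13.5 and 13.3 CPM and ANXA3 at 58.2, 46.4 and 46.3 CPM against 0, 0 and 0 CPM. ANXA6 was separated the other way, at 127, 164 and 186 CPM in UM-UC-3 against 21.3, 4.92 and 7.29 CPM.

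Genes of proliferation were called higher in UM-UC-3 alone. Of 30 genes of S phase and mitosis, 20 passed higher in UM-UC-3 and 0 in T24, with a median difference of -0.84, and 5 were separated, or 11 without the negative control pair. Over all tested genes 23.0% and 24.9% passed in these directions, and 19.7% were separated. Without the negative control pair, separation needs fewer pairs, and its counts rise for all tested genes as well. They went from 1405 to 1723 higher in T24 and from 1311 to 1710 higher in UM-UC-3. The list summed to 5897, 2263 and 2635 CPM in T24 against 8008, 5494 and 5475 CPM in UM-UC-3. The lines thus lay closest in the control pair, and the sum fell further with the siRNAs in T24. CCNB2, a mitotic cyclin, was at 71.6, 28.9 and 17.8 CPM in T24 against 215, 154 and 173 CPM in UM-UC-3, and UBE2C, an enzyme of the anaphase complex, at 53.6, 27.5 and 21.8 against 198, 167 and 154 CPM. Without the siRNA-2 pair 13 of these 30 genes passed, and without the term for treatment 9. Cytosolic ribosomal protein genes passed higher in UM-UC-3 for 15 of 32 and in T24 for 1, while 16 did not pass, and without the siRNA-2 pair for 8 higher in UM-UC-3. In either direction 50% passed, near the 47.9% of all tested genes, of which 23.0% were higher in UM-UC-3 and 24.9% in T24. Of the 32, 15.6% were separated, below the 19.7% of all tested genes. RPL22 was at 53.9, 87.0 and 84.6 CPM in T24 against 575, 458 and 533 CPM in UM-UC-3, and RPL13 at 976, 1269 and 1114 CPM and 249, 222 and 277 CPM. Ribosomal protein genes have many processed copies, so these counts are uncertain. Of 26 chromatin regulators mutated in bladder cancer, 8 passed and 2 were separated, a share of 7.69% below the 19.7% of all tested genes; STAG2, a cohesin subunit, was at 207, 108 and 110.5 CPM in T24 against 30.9, 28.4 and 33.9 CPM in UM-UC-3, and SMARCA2, a remodelling ATPase, at 34.1, 22.3 and 22.4 and 77.1, 69.2 and 87.7 CPM. Among long noncoding RNAs of bladder cancer, NEAT1, the scaffold of paraspeckles, was separated higher in UM-UC-3 (172 ± 109.9 against 515 ± 76.6 CPM), as was DANCR (29.1 ± 2.30 against 86.2 ± 14.3 CPM).

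**Figure D4:**
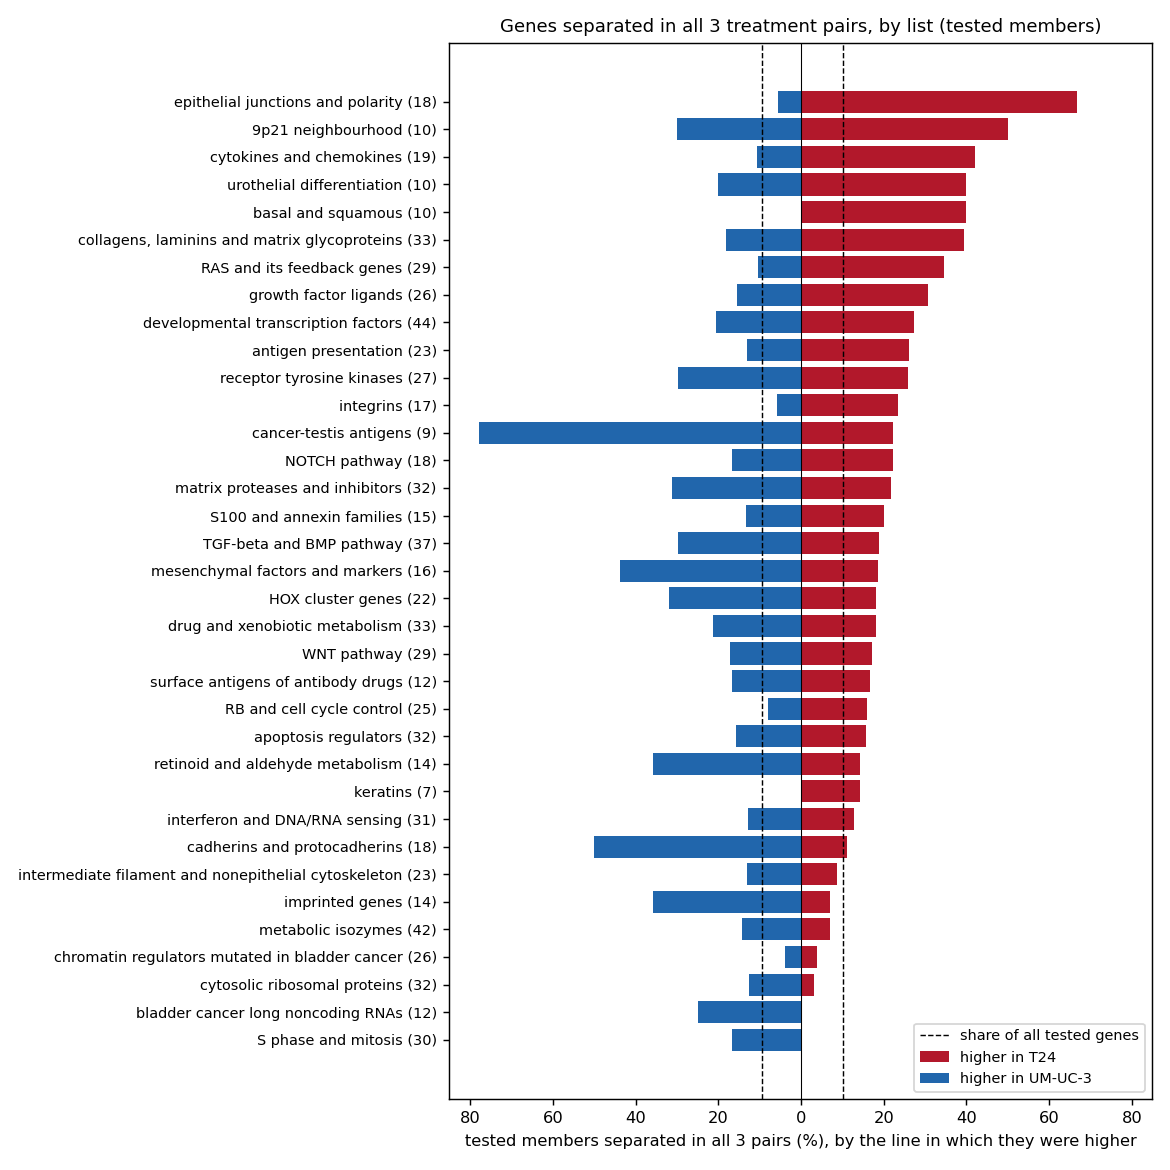
Share of the tested members of each list that were separated in all 3 pairs (%), to the right those higher in T24 and to the left those higher in UM-UC-3, for lists with 7 or more tested members (number in brackets). Dashed lines mark the shares over all tested genes, 10.2% and 9.53%; epithelial junctions reach farthest to the right and cancer-testis antigens farthest to the left.

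Markers of other cell types were low throughout. Of 10 blood markers 8 were listed in neither line, and PTPRC and CD14 summed to 0.0800 to 0.675 CPM per library. Summed endothelial markers ranged from 4.41 to 6.28 CPM in T24 and from 6.89 to 8.38 CPM in UM-UC-3, fibroblast and muscle markers from 3.33 to 5.42 and from 5.68 to 14.8 CPM, and neuroendocrine markers from 2.53 to 5.65 and from 5.42 to 6.80 CPM. DCN, DES, INSM1 and NEUROD1 were listed in neither line.

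Whole chromosomes leaned toward 1 line. The median difference of tested genes was -0.45 on chromosome 8 (478 genes), -0.39 on chromosome 10 (556 genes) and -0.39 on chromosome 12 (752 genes), lower in T24, and 0.43 on chromosome 16 (612 genes) and 0.36 on chromosome 19 (937 genes), higher in T24. On chromosome 8, 39.5% of genes passed higher in UM-UC-3 and 12.6% higher in T24, and on chromosome 16 10.5% and 38.9%. The control, siRNA-1 and siRNA-2 pairs gave medians of -0.48, -0.41 and -0.47 for chromosome 8 and 0.37, 0.47 and 0.47 for chromosome 16. Every pair thus kept the direction of these 5 chromosomes. Neither DNA copy number nor genotype was measured in these libraries.

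**Figure D5:**
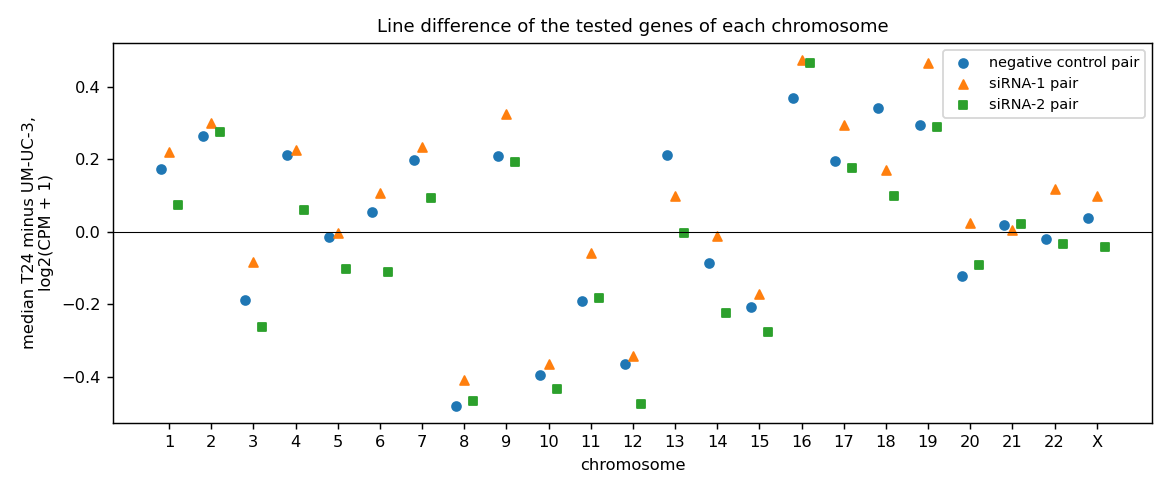
Median T24 minus UM-UC-3 difference of log2(CPM + 1) over the tested genes of each chromosome, for the negative control (circles), siRNA-1 (triangles) and siRNA-2 pair (squares). Chromosomes 8, 10 and 12 lie below 0 and chromosomes 16 and 19 above it in all 3 pairs.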

How the data were processed

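RNA-seq libraries of T24 and UM-UC-3 were compared, 6 in all. Per the submitters' processing notes, bcl2fastq 2.19.1, HISAT2 2.1.0, HTSeq 0.6.1 and hg19/GRCh37 were used. For the role of each and for the gene annotation, the sources used here give nothing. The deposited values were CPM per gene, in 1 file per library. A listed gene without reads carried the value of 0.5 read and was read as 0. Every CPM value was a whole number of reads times the value of 1 read within a tolerance of 0.02 reads (100%), so read counts were recovered from the deposited CPM for count-based alternatives, and for library totals of 23709089 to 28504833 reads. Files were joined by Ensembl identifier, and missing values were set to 0. These hide at most 4 reads where the annotation of the line's files holds the gene and counts its reads.

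Genes with a mean of 1 CPM or more over the 6 libraries were tested with limma 3.58.1 (limma-trend) in R 4.3.3 on log2(CPM + 1), with terms for treatment and line (2 residual degrees of freedom) and Benjamini-Hochberg adjustment at 0.05. Fold changes on this scale understate those of low genes. The treatment term blocks the replicate pairs. Deviations from the line means correlated within same-treatment pairs at 0.24, 0.45 and 0.28, and below 0 in every other combination. Deviations of a line sum to 0, which forces other combinations below 0 on average once same-treatment values are positive. Those negative values therefore tell nothing more about the pairing. The procedure was run on simulated counts that held line differences and no treatment effect. That run does not cover treatment effects that differ between the lines, which are part of the spread on which the p-values rest. "Separated" required a call and a difference of 1 or more on the log2 scale in each pair.

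Exon overlap and gene order were taken from GENCODE release 29. The study's build is GRCh37, so no coordinates were carried over, and promoter positions are those of RefSeq on GRCh38.p14. Named genes are the 12 largest differences in each direction, up to 4 members of each of 39 lists by smallest p, 10 fixed genes and the genes of runs. Some of these are not reported here. Other members given as examples were chosen after their values were seen. Members and lists were chosen with earlier results of these data known. Alternatives were other pseudocounts, filters and scalings, omission of each library or pair, no treatment term, and edgeR 4.0.16, DESeq2 1.42.0 and limma-voom on recovered counts. Differences across cell lines cannot be told apart from differences in medium or in annotation.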

Additional observations from a re-analysis of the deposited data

How the results depend on the processing

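With the 3433 and 3164 genes called higher in T24 and UM-UC-3 as the base, counts on recovered reads were 3102 and 3270 with edgeR (TMM), 3104 and 3274 with edgeR (RLE), 3203 and 3313 with DESeq2 and 3155 and 3301 with limma-voom. Another pseudocount or filter, or omission of genes listed in 1 line, moved these counts by less than 1.5 times. TMM scaling of CPM turned the median over all genes from 0.03 to -0.02. No gene called in the main result was called in the opposite direction under any alternative run. Omitting any library or pair gave 2704 to 3373 and 2417 to 3114 calls, and 1600 to 1723 and 1457 to 1710 separated genes over the remaining pairs. Without the replicate block, that is without the treatment term that pairs the libraries, 2845 and 2635 genes passed and 1401 and 1308 were separated. Of the 209 named genes compared, HSF1 (adjusted p = 0.388), KRT80 (0.103), MIR31HG (0.0577) and COL1A1 (0.107) then no longer passed with limma-trend. Requiring 4-fold in each pair left 519 and 569 genes. Omitting genes with any exon overlap, an alternative chosen after seeing the data, left 1800 and 1530 called and 789 and 685 separated among the 7105 genes still tested. SCN3A, which did not pass, did so with other pseudocounts, without an siRNA library, and with edgeR and limma-voom. Runs of neighbouring genes numbered 16, against 22, when each gene had to hold without any 1 library of the higher line. The causes were not tested. At these depths a gene listed in no library of a line can still have had up to 4 reads in each. It can have had more where that line's annotation lacked the gene or dropped its reads.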
